A study of Mus musculus with 24 samples.

Results

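The 24 colons were ordered by an inflammation score, and the 8 mice with the highest score were compared with the 8 mice with the lowest score, whatever their diet. The score was the mean over Il1b, Tnf, Nos2, Cxcl2, Lyz2, Cd14, Mmp3 and S100a8 of the log2 value minus the gene's mean over the 24 arrays, with each gene read from its brightest probe. The 8 high-score and 8 low-score mice were thus 16 of 24, and the other 8 were called middle mice. Because the mice were chosen by measured values, the differences between them are given as a description with no test.
All mice were male 129/SvEv IL-10 knockout mice (IL-10 KO) of 3 months, and no wild-type array was analysed. In the group names HH, HL, LH and LL, of 6 mice each, the diet of the mother up to weaning comes before that of the pup after weaning, with H for 5000 and L for 25 IU vitamin D per kg diet. Each mouse gave RNA of the proximal colon for 1 Illumina MouseWG-6 array. A mouse is named here by its group and the label of its mother.
IL-10 is a cytokine that restrains macrophages and T cells, and mice that lack it develop colitis driven by gut bacteria. In an inflamed colon, macrophages and neutrophils release interleukin-1 and TNF, chemokines draw in further leukocytes, and matrix metalloproteinases degrade the tissue matrix. Epithelial cells respond with antimicrobial proteins and can lose transporters and enzymes of mature colonocytes.

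The scores of the high-score mice were 0.262 to 0.748 (median 0.315) and those of the low-score mice -1.26 to -0.0816 (median -0.405). The distance between the classes was small at both borders. HL 8, the last high-score mouse, scored 0.262 and HH 5A, the first middle mouse, 0.248. LL 13, the first low-score mouse, scored -0.0816 and LH 12B, the last middle mouse, -0.0116. The spread lay mostly at the low end, where HL 2A, LL 6, HH 10B and HL 10B scored -0.567, -0.822, -0.839 and -1.26.
On the 5000 IU diet after weaning were 6 of the 8 high-score mice and 1 of the 8 low-score mice. On the 5000 IU diet before weaning were 4 of 8 high-score and 5 of 8 low-score mice. The mean score was 0.189 ± 0.374 on the 5000 IU diet after weaning and -0.189 ± 0.473 on the 25 IU diet (SD, n = 12 each). The labels of 4 mothers each stand on a mouse of either post-weaning diet, and in these 4 pairs the mouse on 5000 IU after weaning scored higher by 0.256, 0.419, 0.432 and 0.138. Score class and post-weaning diet thus overlapped, and the part of the diet in the differences given here was not tested beyond the values within each diet given at the end.

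**Figure D1:**
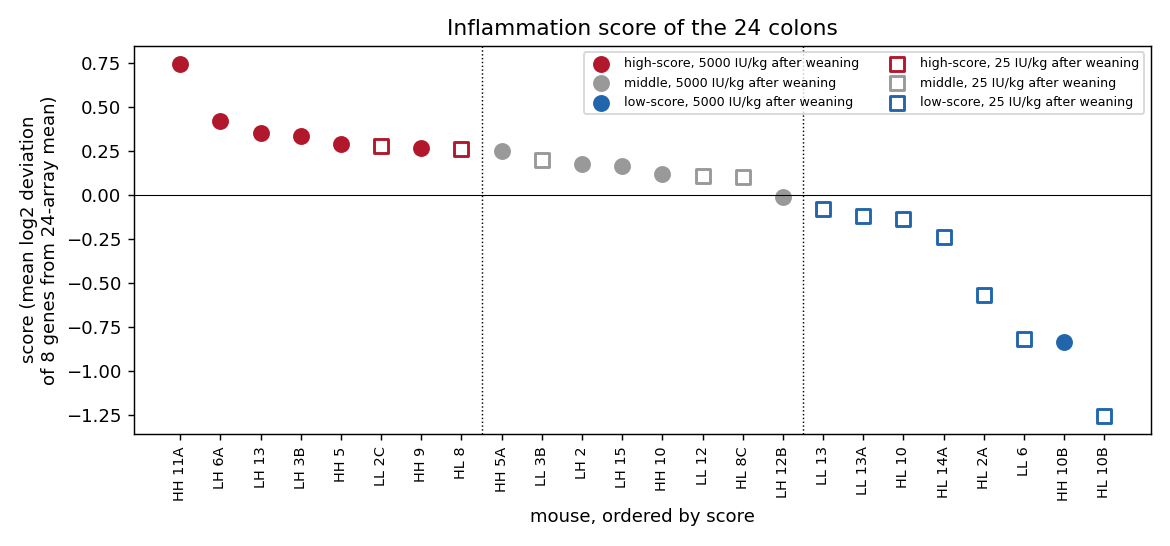
Score of each mouse (y axis, mean log2 deviation of 8 genes from the 24-array mean) in order of the score (x axis). Filled circles are mice on 5000 IU and open squares mice on 25 IU vitamin D per kg after weaning, and dotted lines part the high-score, middle and low-score mice. The 4 lowest mice lie at -0.567 or below, away from the other 20.

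Of the 8 score genes, Il1b (interleukin-1 beta) had log2 values of 9.11, 9.55 and 10.64 (lowest, median and highest) in high-score mice and 7.55, 8.43 and 8.78 in low-score mice. Mmp3 (stromelysin-1) had 8.41, 8.75 and 9.90 in high-score and 7.30, 7.79 and 8.04 in low-score mice. For these 2 genes no high-score mouse overlapped the low-score mice. The means of Il1b were 9.63 ± 0.48 in high-score and 8.27 ± 0.51 in low-score mice (SD, n = 8 each), a difference of 1.36. The other 6 overlapped. S100a8, a calcium-binding protein of neutrophils, had 11.32, 12.27 and 12.83 in high-score and 7.87, 11.33 and 12.38 in low-score mice, and its difference of 1.15 was 0.70 without HL 10B. Tnf differed by 0.45, Cd14 (a co-receptor for bacterial lipopolysaccharide) by 0.43, Nos2 (inducible nitric oxide synthase) by 0.66, Cxcl2 by 0.92 and Lyz2 (lysozyme of macrophages) by 0.94. Without HH 10B, HL 10B and LL 6, which stand apart as described next, Tnf differed by 0.14, Cd14 by 0.30, Nos2 by 0.58, Cxcl2 by 0.79, Lyz2 by 0.55 and S100a8 by 0.39, and Il1b by 1.02 and Mmp3 by 1.03. These values chose the mice and are given as a description. Other probes of the score genes, where detected on at least 6 arrays, differed by 0.28 and 0.58 for Mmp3 and 0.41 for Cxcl2. They differed by 0.34 for Tnf and 0.99 for Lyz2.

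The share of probes detected was 32.8% ± 4.90 in high-score and 30.7% ± 4.70 in low-score mice (SD, n = 8 each), with a two-sided exact permutation p = 0.388. The mean raw intensity was 443 ± 126 in high-score and 402 ± 96.0 in low-score mice (SD, n = 8 each), with an exact permutation p = 0.467. Neither measure entered the score, and the differences were smaller than the spread between mice. Il10, the disrupted gene, had a probe detected on 20 of 24 arrays, but where that probe lies relative to the disruption was not given, and the genotype was not checked by it. HH 10B, HL 10B and LL 6 were known from earlier results to stand apart from the other arrays, and all 3 were low-score mice. They were also the 3 mice with the lowest scores, so leaving them out brings the classes closer by the ranking itself. For genes that follow the score, a smaller difference without them was therefore built in. Differences of the genes and lists named are also given without these 3 mice where leaving them out moved the value by over 1.5 times or turned its sign.

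A gene outside the score was kept where its brightest probe was detected on at least 6 of 24 arrays, which left 9619 genes. Of these, 83 (0.863%) were at least 0.5 higher on the log2 scale, or 1.41-fold, in high-score mice and 93 (0.967%) at least 0.5 lower. All 8 high-score mice lay above all 8 low-score mice for 3 genes (0.0312%) and below them for 6 genes (0.0624%). The high-score mean was the higher one for 4520 genes (47.0%), and the median difference over all genes was -0.01. The median SD within a class was 0.233. With the arrays scaled to a common median and not quantile normalized, the median over all genes shifted to 0.14, with 444 genes at least 0.5 higher and 19 lower, or 145 and 46 relative to that shift. Without HH 10B, HL 10B and LL 6 there were 110 genes higher and 156 lower, of which 31 and 47 were among the 83 and 93. Without LH 6A alone, a high-score mouse, 151 genes were lower.

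The genes that lay apart were few and were not those with the largest differences. Igfbp5 (probe ILMN_2682613, chromosome 1), a secreted binding protein for insulin-like growth factors, had log2 values of 11.55, 11.79 and 12.66 (lowest, median and highest) in high-score mice and 11.07, 11.35 and 11.52 in low-score mice. Its means were 11.93 ± 0.36 in high-score and 11.34 ± 0.15 in low-score mice (SD, n = 8 each), a difference of 0.59, and both of its other probes were also higher, by 0.48 and 0.63. Lilrb4a, an inhibitory receptor of myeloid cells, differed by 0.30 and Lin7c, a scaffold protein of cell junctions, by 0.24. Both were near background, detected on 10 and 8 of 24 arrays. Lilrb4a was detected on 6 high-score and 0 low-score arrays, and Lin7c on 5 and 0. Both thus passed the filter without any low-score array.
On the lower side, Gpt (probe ILMN_2832524, chromosome 15), an alanine aminotransferase that links amino acid and glucose metabolism, had 7.70, 7.96 and 8.03 in high-score mice and 8.18, 8.67 and 8.94 in low-score mice. Its means were 7.92 ± 0.12 in high-score and 8.58 ± 0.31 in low-score mice (SD, n = 8 each), a difference of -0.66. Vsig2 (probe ILMN_1245518, chromosome 9), an immunoglobulin-domain membrane protein, had 7.96, 8.42 and 8.81 in high-score and 8.88, 9.03 and 9.27 in low-score mice, with means of 8.42 ± 0.27 in high-score and 9.04 ± 0.13 in low-score mice (SD, n = 8 each), a difference of -0.62. A dimmer probe of Vsig2, detected on 19 arrays, differed by -0.13. Dclk3, a doublecortin-like kinase, differed by -0.47, Crybg2 by -0.35, Fcrls by -0.31 and Lrrc75a by -0.30. A second, dimmer probe of Crybg2, detected on 15 arrays, had a difference of 0.09 with the opposite sign. Fcrls was detected on 11 arrays, of which 1 was of a high-score mouse and 6 were of low-score mice.
Without the 3 mice that stood apart, the differences were 0.57 for Igfbp5, 0.26 for Lilrb4a and 0.24 for Lin7c. They were -0.67 for Gpt, -0.57 for Vsig2, -0.40 for Dclk3, -0.32 for Crybg2, -0.30 for Fcrls and -0.32 for Lrrc75a.

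The 15 largest differences on each side were chosen after the values were seen, and the classes overlapped for all 30 genes. S100a9 (probe ILMN_2803674, chromosome 3), which pairs with S100a8 to form calprotectin, had log2 values of 9.64, 10.38 and 11.87 in high-score mice and 7.10, 8.83 and 10.12 in low-score mice. Its means were 10.56 ± 0.68 in high-score and 8.72 ± 1.06 in low-score mice (SD, n = 8 each), and the difference of 1.84, or 3.57-fold, was the largest of all genes kept. It was 1.20 without HH 10B, HL 10B and LL 6.
Genes of leukocytes and antimicrobial defence were among the other 14. Chil1, a chitinase-like protein of macrophages and inflamed epithelium, had 10.18, 11.03 and 11.98 in high-score and 8.26, 9.86 and 11.61 in low-score mice, a difference of 1.27. Saa3, an acute-phase serum amyloid A, had 11.00, 11.78 and 12.07 in high-score and 8.62, 11.22 and 11.66 in low-score mice, a difference of 1.07. Once the 3 mice were left out, these differences were 0.53 and 0.28. Lcn2 (lipocalin-2, which binds bacterial siderophores) differed by 0.98 and Slpi, a secreted inhibitor of leukocyte proteases, by 0.85, and without the 3 mice by 0.52 and 0.94. Fpr2, a receptor for formylated peptides on phagocytes, differed by 0.86, Fcgr2b, an inhibitory Fc receptor, by 0.81 and Ighg1, an immunoglobulin heavy chain gene, by 1.12. When the 3 mice were left out, Fpr2 differed by 0.31, Fcgr2b by 0.64 and Ighg1 by 0.83.
Matrix metalloproteinases other than Mmp3 were also among the largest. Mmp10 (stromelysin-2) had 9.09, 9.51 and 10.29 in high-score and 7.59, 8.55 and 9.36 in low-score mice, a difference of 1.07. Mmp12 (macrophage elastase) differed by 0.98 and Mmp13 (a collagenase) by 0.78. Sprr2h, a small proline-rich epithelial protein, differed by 1.22, the interferon-induced Ifit2 by 0.94, the prolyl hydroxylase Egln3 by 0.77 and Cwh43 by 0.75. Without the 3 mice the differences were 0.68 for Mmp10, 0.46 for Mmp12, 0.65 for Mmp13, 0.72 for Sprr2h, 0.59 for Ifit2, 0.46 for Egln3 and 0.60 for Cwh43.

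The 15 genes with the largest lower values in high-score mice included genes of epithelial transport, detoxification and secretion. Cyp2c55 (probe ILMN_2736539, chromosome 19), a cytochrome P450 of the colon, had 7.35, 8.36 and 9.42 in high-score and 8.90, 10.23 and 11.95 in low-score mice. Its means were 8.54 ± 0.76 in high-score and 10.17 ± 1.02 in low-score mice (SD, n = 8 each), a difference of -1.63, and it was -1.10 without the 3 mice that stood apart. Slc51a (probe ILMN_2746116, chromosome 16), the alpha subunit of the transporter that exports bile acids at the basolateral membrane, had 7.46, 8.29 and 8.65 in high-score and 8.39, 9.61 and 9.89 in low-score mice. Its difference was -1.22, and -1.23 without the 3 mice. LL 13A and HH 10B, at 8.45 and 8.39, were the low-score mice within the range of the high-score mice.
Mptx1, a mucosal pentraxin, showed another pattern. It had 8.31, 9.05 and 9.81 in high-score and 8.88, 10.35 and 12.62 in low-score mice, a difference of -1.76 that was -0.72 without the 3 mice. Its values in LL 6, HH 10B and HL 10B were 12.62, 12.62 and 12.55, and 10.83 in HL 2A. Ang4, an antimicrobial angiogenin, was at 9.68, 9.54 and 9.57 in the same 3 mice and at 7.12 to 7.82 in high-score mice, and its difference of -0.89 was -0.11 without them. The middle mouse HH 10 was at 9.80.
The sodium-proton exchanger Slc9a3 differed by -0.81, the sulfotransferase Sult1c2 by -0.79, Cyp2d9 by -0.82 and the dipeptidase Dpep1 by -0.80. With these 3 mice left out, these were -0.38, -0.20, -0.45 and -0.42. Sycn, a zymogen granule protein, differed by -1.40, the heat shock protein Hsph1 by -0.99, 2900060B14Rik by -0.97, the histone H4c1 by -0.84 and Neurl1a by -0.79. Once the 3 mice were left out, Sycn differed by -0.74, Hsph1 by -0.82, 2900060B14Rik by -1.16, H4c1 by -1.02 and Neurl1a by -0.67. For 2 genes of the exocrine pancreas, Amy2a5 (amylase) and Clps (colipase), the differences of -0.96 and -0.95 were -0.14 and -0.60 without LL 13A, and -1.51 and -0.81 without the 3 mice. Amy2a5 was at 14.03 in LL 13A, at 14.64 in the middle mouse HL 8C and at 7.16 to 7.61 in high-score mice.

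**Figure D2:**
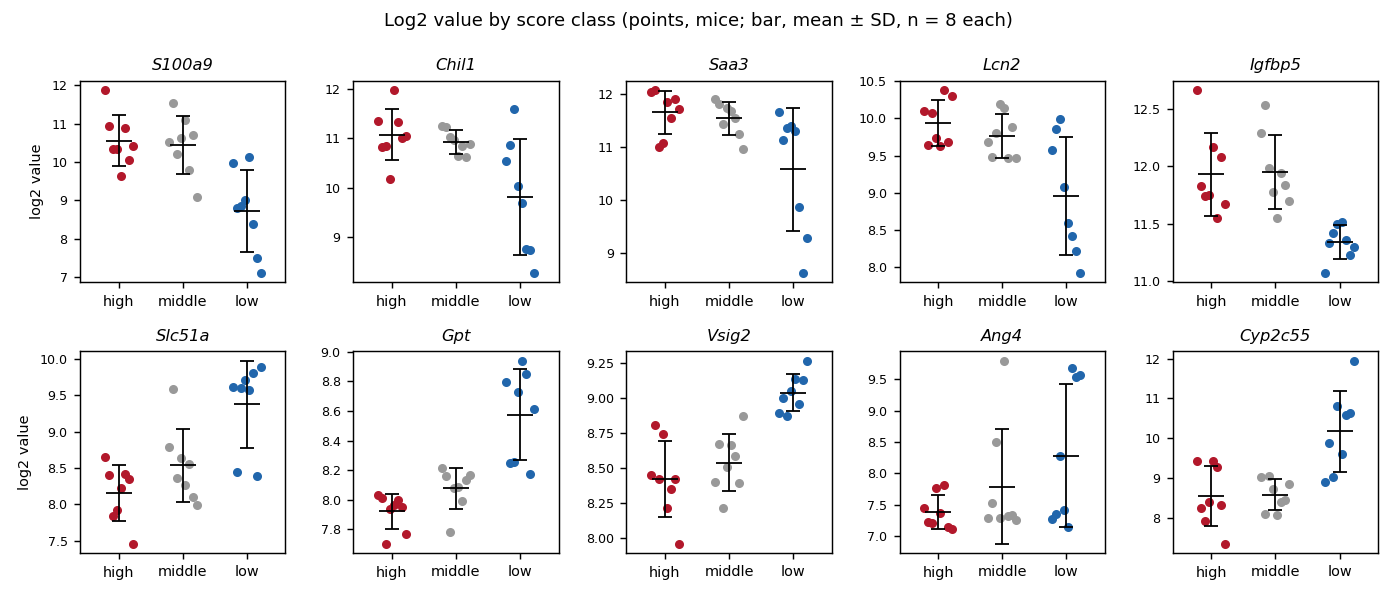
Log2 values (y axis) of 10 genes in high-score, middle and low-score mice, with points for mice and bars for mean ± SD (n = 8 each). For Igfbp5, Gpt and Vsig2 the high-score and low-score mice do not overlap. For Saa3 and Ang4 a few low-score mice lie away from the other low-score mice.

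The middle mice lay nearer the high-score mice. With the low-score mean set to 0 and the high-score mean to 1, the median place of the middle mean was 0.821 over the 83 genes and 0.784 over the 93. The middle mice did not choose the genes, and within them the 4 with the higher scores were above the other 4 for 51 of the 83 genes (61.4%) and for 46 of the 93 (49.5%), against 48.9% of all genes. S100a9 was 0.55 higher and Igfbp5 0.39 higher in the 4 middle mice with higher scores, Gpt differed by -0.04 and Vsig2 by -0.18, and Slc51a by 0.62, opposite in sign to its difference between the high-score and low-score mice. The mean of Igfbp5 over all 8 middle mice, 11.95, was not below its high-score mean of 11.93.

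Among 38 markers of neutrophils and macrophages beside the score genes, 26 were measured, 23 of these had the higher mean in high-score mice (88.5%, against 47.0% of all genes), and the median difference was 0.38, against -0.01 over all genes. At least 0.5 higher were 7 (against 0.863% of all genes) and at least 0.5 lower 0 (against 0.967%). Ctss (cathepsin S) differed by 0.71 and Clec7a (dectin-1, a receptor for fungal glucans) by 0.73, and by 0.49 and 0.12 without HH 10B, HL 10B and LL 6. Clec4d differed by 0.65, Fcgr3 by 0.59 and Csf1r by 0.54, and by 0.32, 0.16 and 0.32 without these mice. S100a9 and Fpr2, given above, then differed by 1.20 and 0.31. Of the markers not measured, 5 (Itgam, Cybb, Cd300lf, Cxcr2 and Fcer1g) were detected on no array. In bulk tissue, fewer cells of a type and less RNA per cell cannot be told apart. Without the 3 mice the median was 0.16 and 19 of 26 were higher. Against the 4 lowest mice it was 0.65 and 26 of 26 were higher. Against the 4 other low-score mice it was 0.09 and 18 of 26 were higher. The score divided these 4 and 4 mice, so for genes that follow it a larger difference against the 4 lowest was built in.
Among chemokines, 18 of 23 were higher with a median of 0.26. Cxcl1, which attracts neutrophils, differed by 0.66, Cxcl9, which is induced by interferon-gamma, by 0.52 and Cxcl13, which attracts B cells, by 0.53. Ccl5, a chemokine of T cells, differed by -0.25. When the 3 mice were left out, the median was 0.07, with 17 of 23 higher, and Cxcl1 differed by 0.24, Cxcl13 by 0.24, Ccl5 by -0.74 and Cxcl9 by -0.14, so that the sign of Cxcl9 turned. Of the interleukin-1 family and cytokines, 8 of 9 were higher, with a median of 0.21 and the largest difference, 0.45, for Il1a. Il1a was detected on 7 high-score and 0 low-score arrays, so it passed the filter without any low-score array. Its low-score mean of 7.11 was near 7.09, the median of undetected probes. The interleukin genes Il17f, Il21, Il22 and Il23a, and Csf2, were detected on no array.
Of the interferon-gamma and MHC class II genes, 25 of 27 were higher with a median of 0.27. Ido1, which degrades tryptophan, differed by 0.60, Ubd (a ubiquitin-like modifier) by 0.54, and Igtp, an interferon-induced GTPase, by 0.49. With these 3 mice left out, the median was 0.07 and 15 of 27 were higher, with Ido1 at 0.20, Igtp at 0.23 and Ubd at -0.06, of the opposite sign. Targets of TNF and NF-kappaB had 21 of 23 genes higher and a median of 0.13, which was 0.04 with 14 of 23 higher without the 3 mice, and -0.03 against the 4 other low-score mice. Tnfaip3, a feedback inhibitor of NF-kappaB, differed by 0.55, and Vcam1, an adhesion molecule of endothelium, by 0.43, and by 0.41 and 0.28 without the 3 mice.
T cell markers had a median of 0.06 with 10 of 15 higher, and -0.13 with 6 of 15 higher without the 3 mice. It was 0.32 against the 4 lowest mice and -0.24 against the 4 other low-score mice, so that its sign depended on which low-score mice were taken. B cell and plasma cell markers had a median of 0.15 with 12 of 13 higher, and 0.07 with 7 of 13 higher without the 3 mice. Cholesterol synthesis genes had 14 of 17 higher with a median of 0.25, which was 0.31 against the 4 lowest and 0.18 against the 4 other low-score mice. Cyp51, a demethylase of this pathway, differed by 0.57. Matrix and fibroblast genes had 18 of 27 higher with a median of 0.12, which was 0.18 with 24 of 27 higher without the 3 mice. Within the 5000 IU post-weaning diet, where HH 10B was the 1 low-score mouse, their median was -0.07, and within 25 IU it was 0.03.

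**Figure D3:**
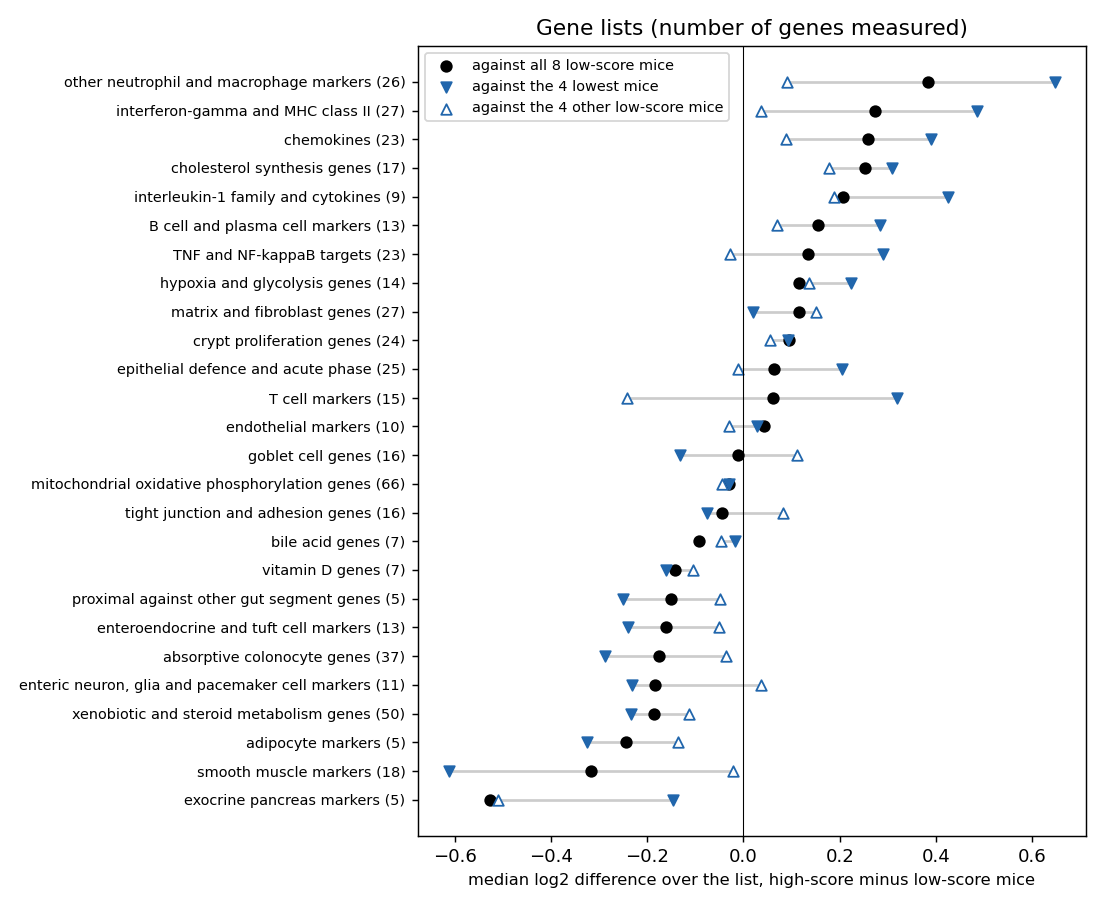
Median log2 difference over each gene list (x axis, high-score minus low-score mice) for the lists with at least 5 genes measured (y axis, number measured in brackets). Black points take all 8 low-score mice, filled triangles the 4 lowest and open triangles the 4 other low-score mice. The smooth muscle median is -0.61 against the 4 lowest and -0.02 against the 4 others, and the neutrophil and macrophage median 0.65 and 0.09.

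Of 37 absorptive colonocyte genes, 6 were higher and the median difference was -0.17, but it was 0.00 with median scaling, which is -0.13 relative to the shift of all genes, and 0.00 without HH 10B, HL 10B and LL 6. The water channel Aqp8 differed by -0.59, the chloride-bicarbonate exchanger Slc26a3 by -0.56 and Guca2a, the guanylin precursor, by -0.54. Without the 3 mice these were -0.28, -0.18 and -0.38. Xenobiotic and steroid metabolism genes had 10 of 50 higher and a median of -0.19, which was -0.09 without the 3 mice, with 15 of 50 higher. Of these, Ces1d, a carboxylesterase, differed by -0.63, and by -0.38 without the 3 mice. Goblet cell genes had a median of -0.01, which was 0.14 with median scaling (0.00 relative to the shift) and 0.09 without the 3 mice. The chloride channel regulator Clca1 differed by -0.56, but by 0.04 without the 3 mice, and the mucin Muc2 by 0.04, or 0.07 without them. Bile acid genes had 2 of 7 higher, and Slc51b, the partner of Slc51a, differed by -0.30. Tight junction and adhesion genes had a median of -0.04, which was 0.15 with median scaling (0.01 relative to the shift) and 0.09 without the 3 mice. Cldn4, a claudin, differed by 0.60, and by 0.20 without them. Enteroendocrine and tuft cell markers had 1 of 13 higher and a median of -0.16, with differences of -0.57 for Sst (somatostatin) and -0.32 for Pyy (peptide YY). That median was -0.03 without the 3 mice, with Sst at -0.49 and Pyy at -0.10. Crypt proliferation genes had 16 of 24 higher and a median of 0.09, which was 0.04 without the 3 mice. Hypoxia and glycolysis genes had 13 of 14 higher and a median of 0.12.
Markers of gut segments were read beside the labelled tissue, but they could not settle it. Of 42 absorptive colonocyte genes listed, 37 were measured and 2 were detected on no array. Probes of Hoxb13 (distal colon), Gata4, Fabp1, Fabp2 and Apoa4 (mainly small intestine), Gkn1 (stomach) and Alb (liver) were detected on no array. Probes of the epithelial genes Epcam and Jup and of the mitochondrial gene Sdha were also detected on no array. An undetected probe thus cannot show that a segment is absent. The median of the 5 segment genes measured was -0.15, or 0.06 with median scaling, which is -0.07 relative to the shift, and -0.03 without the 3 mice. The differences ran from -0.53 for Osr2 to 0.13 for Hoxa9, and Osr2 differed by -0.71 without the 3 mice. These genes mark different segments, so their median does not show whether the classes were sampled at the same position.
Antimicrobial and acute-phase genes of the epithelium differed in both directions. Of 25 measured, 14 were higher (56.0%, against 47.0% of all genes), 6 of them at least 0.5 higher (0.863% of all genes) and 2 were at least 0.5 lower (0.967%). The share of higher genes was near that of all genes. The median was 0.06, or -0.01 with median scaling relative to the shift, and 0.00 without the 3 mice. Nox1, an oxidase of the colonic epithelium, differed by 0.70, Hp (haptoglobin) by 0.67 and Ltf (lactoferrin) by 0.52, while Saa1 differed by -0.43 and Reg3b by -0.02. Once the 3 mice were left out, Nox1 differed by 0.69, Hp by 0.41, Ltf by 0.32, Saa1 by -0.27 and Reg3b by 0.02. Mitochondrial oxidative phosphorylation genes had a median of -0.03 (23 of 66 higher), which was 0.14 with median scaling and 0.01 relative to the shift. Of 18 vitamin D genes, 7 were measured, with a median of -0.14 that was 0.04 with median scaling, which is -0.10 relative to the shift, and -0.10 without the 3 mice. Vdr, the vitamin D receptor, differed by -0.19, and by -0.10 without them. Cyp24a1 and Cyp27b1, which inactivate and activate the hormone, were detected on no array.

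Markers of tissue outside the mucosa also differed between the score classes. Of 18 smooth muscle markers, 1 was higher, and the median was -0.32. Their summed signal was 37246 to 52070 in high-score and 41105 to 85937 in low-score mice. Synm (synemin) differed by -0.77, Des (desmin) by -0.52 and Mylk (myosin light chain kinase) by -0.51, and Synpo2 and Ppp1r12b were detected on no array. The mean log2 value of the list was 10.85 in LL 6, 10.57 in HH 10B and 10.82 in HL 10B, above the 9.80 to 10.16 of the high-score mice. Without these 3 mice the median was -0.02 and 6 of 18 were higher, with Synm at -0.44, Des at -0.36 and Mylk at -0.17. Enteric neuron, glia and pacemaker cell markers had 2 of 11 higher and a median of -0.18, which was 0.04 without the 3 mice, with a summed signal of 3631 to 4228 in high-score and 3243 to 5797 in low-score mice. Of 24 markers listed for exocrine pancreas, 5 were measured and none of these was higher (median -0.53). The list holds Zg16, which is also a goblet cell gene, so its summed signal is not given. Zg16 differed by -0.02, and by 0.06 without the 3 mice. Adipocyte markers had 1 of 5 higher and a median of -0.24, with a summed signal of 1490 to 3262 (median 2216) in high-score and 1427 to 4336 (median 1714) in low-score mice. The medians of the sum thus went the other way. The median difference was 0.26 within 5000 IU after weaning, where HH 10B was the 1 low-score mouse, and -0.29 within 25 IU. Endothelial markers had a median of 0.04 (6 of 10 higher). Of 15 mast cell and eosinophil markers 11 were detected on no array. The part of these markers in the other differences was not tested.

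**Figure D4:**
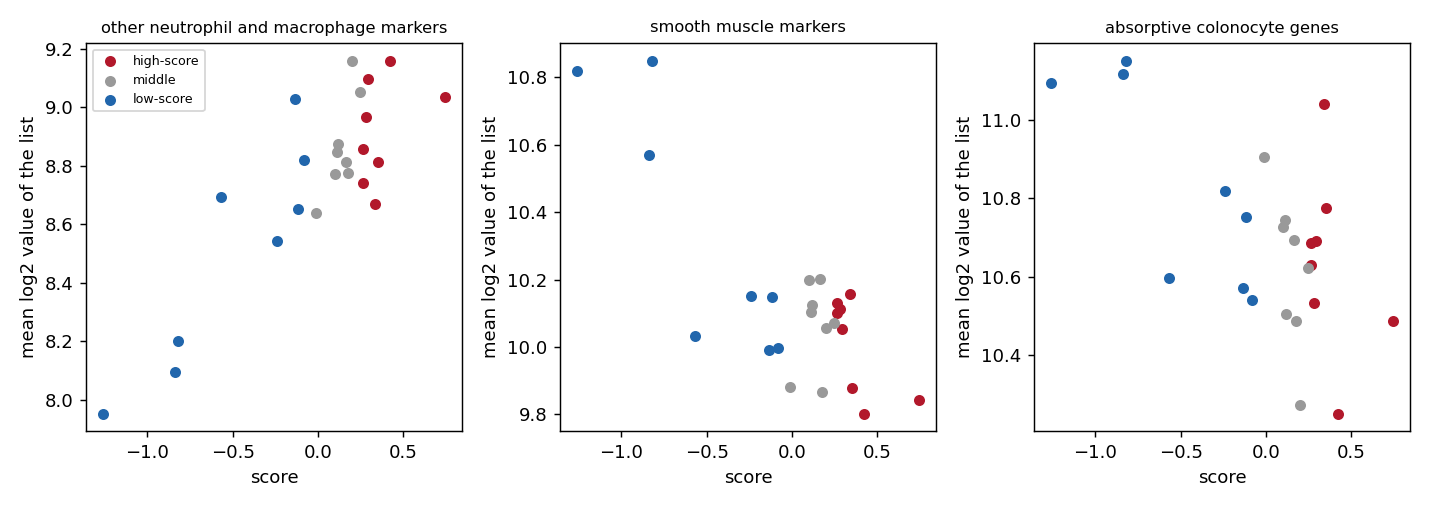
Mean log2 value of 3 gene lists (y axes) against the score (x axes) for the 24 mice, coloured by class. HL 10B, HH 10B and LL 6, the 3 mice with the lowest scores, lie at 10.57 to 10.85 for smooth muscle markers, above every other mouse, and at 7.95 to 8.20 for neutrophil and macrophage markers, below every other mouse.

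Sequence stretches before the start of genes that were higher are shown because the NF-kappaB site is a known element of chemokine promoters. RefSeq promoter windows (GRCm38.p6, 250 bases before to 50 after the start) were found for 69 of the 83 genes. A kappaB core, GGGANTTTC on either strand, was in 5 of these 69 (7.25%), in 2 of the windows of 78 lower genes (2.56%), in 1.1% of the 7788 windows of all genes kept and in 1.15% of 27025 RefSeq windows. Of those 5, Cxcl9 and Ubd differed by -0.14 and -0.06 without the 3 mice that stood apart. The 2 lower genes were Amy2a5 and 2900060B14Rik. A C/EBP motif, TTGCNNAA on either strand, was in 21.7% of the windows of higher genes, 10.3% of those of lower genes, 8.06% of those of all genes kept and 10.8% of the RefSeq windows. A match describes the letters only. The stretches of the score gene Cxcl2 (chr5:90903752-90903860, plus strand) and of S100a9 (chr3:90695798-90695906, minus strand), Cxcl1 (chr5:90891124-90891232, plus strand) and Cxcl9 (chr5:92328175-92328283, minus strand) are printed along the gene with the match in capitals. It begins 97, 135, 71 and 154 bases before the start. In Cxcl9 the match is on the other strand.
Cxcl2: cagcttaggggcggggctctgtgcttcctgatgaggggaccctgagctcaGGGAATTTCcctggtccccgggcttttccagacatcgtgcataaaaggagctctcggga
S100a9: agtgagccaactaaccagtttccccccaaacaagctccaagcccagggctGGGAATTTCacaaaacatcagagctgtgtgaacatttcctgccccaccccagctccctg
Cxcl1: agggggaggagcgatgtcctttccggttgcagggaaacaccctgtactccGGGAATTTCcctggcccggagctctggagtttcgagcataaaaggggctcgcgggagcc
Cxcl9: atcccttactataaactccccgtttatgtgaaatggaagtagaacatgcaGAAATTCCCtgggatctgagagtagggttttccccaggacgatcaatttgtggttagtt

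After the score was entered in the fit, the diets were tested in all 24 mice with limma over 9619 genes. No gene passed an adjusted p of 0.05 for the post-weaning diet (0 of 9619, 0%, smallest adjusted p = 0.939) or for the pre-weaning diet (0 of 9619, 0%, smallest adjusted p = 1). At an unadjusted p under 0.05 there were 355 genes (3.69%) by post-weaning diet, 155 higher and 200 lower on 5000 IU. By pre-weaning diet there were 87 (0.904%), 61 higher and 26 lower. With all 24 mice both shares lay under the share of 0.05 that this threshold allows with no effect. With 1 mouse left out, the post-weaning share ran from 1.07% (without HH 10B) to 6.5% (without LH 6A). It was also above that level without LL 2C (6.27%) and without HL 8 (5.6%). The pre-weaning share ran from 0.468% (without HH 11A) to 3.05% (without HL 2A). Without the score in the fit the post-weaning counts were 0 and 355 (3.69%). Over all 9619 genes, 95% confidence intervals reached a median of 0.206 to either side of the difference for post-weaning and 0.19 for pre-weaning diet. The number of arrays limits the precision.
Within the 5000 IU diet after weaning, 6 high-score mice were set against 1 low-score mouse, HH 10B, and within the 25 IU diet 2 against 7. The median of the neutrophil and macrophage markers was 0.81 within 5000 IU and 0.23 within 25 IU, and that of the smooth muscle markers -0.60 within 5000 IU and -0.16 within 25 IU. Vsig2 differed by -0.62 within 5000 IU and -0.87 within 25 IU, and S100a9 by 3.02 within 5000 IU and 1.75 within 25 IU. Igfbp5 differed by 0.81 within 5000 IU and 0.25 within 25 IU, and Gpt by -0.24 and -0.75. The sign within 5000 IU was opposite to that within 25 IU for Slpi (-0.05 and 0.76), 2900060B14Rik (0.15 and -1.70) and Amy2a5 (0.21 and -1.12). Slc51a differed by -0.16 within 5000 IU, where the 1 low-score mouse was at 8.39, and by -1.58 within 25 IU.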

How the data were processed

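Proximal colon RNA from 24 male IL-10 KO mice was measured on Illumina MouseWG-6 arrays. The deposited raw signal intensity and detection score (1 minus the detection p) cover 45281 probes, and the log2 values were quantile normalized by the authors (GeneSpring, as their methods state). The authors' tables hold 1 column for each mouse and measure, so none was left unmapped. A gene was its brightest probe among 34885 with a single symbol in the platform annotation, and it was kept where that probe had a detection score above 0.99 on at least 6 arrays (9619 genes, score genes left out). High-score and low-score mice were compared by differences of mean log2 values, with no test, since the score chose them. Summed signals add the antilogs of a list's log2 values. Detected share and mean intensity were compared by an exact permutation test over 12870 divisions. Diets were fitted with limma 3.58.1 (R 4.3.3) with the score as covariate and Benjamini-Hochberg adjustment, and mice with the same mother's label as a replicate block gave an alternative. Promoters were the first RefSeq window listed for a gene. The code was tested on simulated data. The members, gene lists and tests were chosen with earlier results of these data known. The rule for named genes took the score genes, the genes without overlap and up to 4 members of each list with the largest differences, and the 15 largest differences on each side and some list members were added after the values were seen. Alternatives were another scaling, background correction by neqc, other filters, other scores, each mouse left out, and the 3 mice that stand apart left out. The division of the low-score mice into 4 and 4 and the values relative to the shift of all genes were chosen after seeing the data, as were the values of named genes without the 3 mice. A block by beadchip was not run, since the file headers used here give no chip.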

Additional observations from a re-analysis of the deposited data

Results flagged for a closer look

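Among 100 sets of 8 values examined, each an array measure or a named gene in 1 score class, 9 values lay far from the others by Dixon's criterion. The score ranked the mice and many genes were chosen by their values, so a chance rate of 1 in 20 does not apply. The score, Mmp3 and S100a8 were themselves values that ranked the mice. The score of HH 11A was 0.748 and the next of the high-score mice 0.421. The log2 value of HH 11A was also far above the other high-score mice for Mmp3 (9.90) and Mmp13 (9.81) and far below them for Sprr2h (8.33). HL 10B was far below the other low-score mice for S100a8 (7.87). LH 6A was far above the other high-score mice for 2900060B14Rik (11.66) and H4c1 (11.28), and LL 13A far above the other low-score mice for Amy2a5 (14.03) and Clps (10.91).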

How the results depend on the processing

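The counts of 83 genes higher and 93 lower, and of 3 and 6 without overlap, changed with the processing and the mice, and the cause was not tested. With median scaling there were 444 higher, 19 lower, and 1 and 1 without overlap, and relative to the shift of all genes 145 and 46, with 0 higher and 10 lower without overlap. With neqc there were 444 higher and 444 lower. The 12 highest against the 12 lowest mice gave 30 and 25, with 0 and 0 without overlap. Without HH 10B, HL 10B and LL 6 there were 156 lower, and 11 higher and 38 lower without overlap, which fewer mice meet more easily. Within post-weaning diets the counts were 156, 176, 61 and 92, and within pre-weaning diets 7 and 11 genes did not overlap. Genes detected on at least 12 arrays gave 1 higher without overlap, and score genes scaled by their SD gave 5. Leaving out 1 mouse gave 64 to 112 higher and 68 to 151 lower, with 151 without LH 6A. Among lists with at least 5 genes measured, the medians of T cell (-0.13), goblet (0.09), tight junction (0.09), colonocyte (0.0015) and neuron and glia (0.0397) lists had the opposite sign without the 3 mice. With median scaling so did goblet (0.14), tight junction (0.15), mitochondrial (0.14), colonocyte (0.004), vitamin D (0.0363) and gut segment (0.0633) lists, of which colonocyte (-0.13), vitamin D (-0.10) and gut segment (-0.07) lists kept their sign relative to the shift of all genes. The matrix median was -0.0559 when averaged over post-weaning diets, 1 of which holds a single low-score mouse, HH 10B. The dimmer probe of Crybg2 gave 0.0874 and that of Vsig2 -0.1339. The diet tests called 0 genes under each alternative run. With the mother's label as a replicate block they called 0, with 471 (4.9%, post-weaning) and 61 (0.634%, pre-weaning) genes at an unadjusted p under 0.05 (correlation 0.182). Of the 9619 genes, those near background have compressed differences.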
